A study of Homo sapiens with 3 samples.

Results

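Enzymes that modify RNA and the proteins that read N6-methyladenosine (m6A) were examined for H3K27ac, the acetylated form of lysine 27 on histone H3 that is typical of promoters and enhancers in use, in A2780 cells, a human ovarian carcinoma line. The members were the protein-coding genes whose symbol starts with NSUN, METTL, TRMT, YTHD, ALKBH or PUS, together with FTO, WTAP, VIRMA, RBM15, ZC3H13 and DKC1. This gave 71 of 19974 protein-coding genes in the RefSeq gene table of GRCh38. H3K27ac was profiled by CUT&Tag, in which an antibody brings a transposase to the mark so that the DNA beside it is cut and tagged. The study had 3 libraries, 1 per group. For the BPP library, the cells had been treated with the BPP peptide, described in the design as a competitor for the site at which BIN2 is phosphorylated. H3K27ac in control cells made up the CTR library. IgG, an antibody with no chosen target, gave the background library. The sources used here do not say what the CTR cells received, although the design text names a TAT peptide as the comparison in its RNA-seq. All libraries came from the same line, from cells that had been frozen and thawed.

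RNA modifications are laid down by writer enzymes, taken off by eraser enzymes and recognised by reader proteins. The main m6A writer is a heterodimer of METTL3, which carries the catalytic site, and METTL14, which helps to bind RNA. WTAP, VIRMA, RBM15 and ZC3H13 hold this writer in the nucleus and steer it to its sites. FTO and ALKBH5 remove the methyl group, and the YTH proteins bind it and direct the RNA to export, translation or decay. Transfer RNAs carry the densest set of modifications, made by the TRMT, NSUN and PUS families and by several METTL enzymes, and these stabilise the tRNA fold and the reading of codons.

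Only peak calls were available, and a gene was counted as marked by a library when at least 1 of its peaks overlapped a window of 1 kb on either side of a gene end. For each peak the authors' fold (enrichment over a background that is not described) and −log10 q (strength of the call) are printed. Both belong to 1 list and describe a peak within it. A difference between the values in BPP and CTR at the same gene is not read as a change. The lists held 17841 BPP, 14836 CTR and 7701 IgG peaks on chromosomes 1 to 22 and X, and the number of reads behind them is unknown. A gene marked in 1 list only may lie just under the threshold of the other. With 1 library per group, no difference between BPP and CTR had a replicate check and none was tested.

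Of the members with a promoter entry, those with the highest −log10 q in each class are shown first, because the results turn on whether a peak lies over them. They are taken from the RefSeq promoter table (GRCh38.p14), which matched 59 of the 71 members (not METTL1, METTL17, METTL22, METTL26, NSUN2, PUS1, PUS7L, PUSL1, TRMT2A, TRMT9B, VIRMA and YTHDF3), and run 5′ to 3′ from 250 bases before the start site to 50 bases from it. Capitals mark matches on either strand to the CCAAT box, the TATA box (TATAAA), the GC box (GGGCGG), the core of ETS sites (CCGGAA), an E-box (CACGTG), the half-site of NRF1 (GCGCATG) or the core of YY1 sites (AGATGGC). METTL16, TRMT10B and METTL14 had a peak in BPP only.
METTL16 (chr17:2511839-2512138, minus strand): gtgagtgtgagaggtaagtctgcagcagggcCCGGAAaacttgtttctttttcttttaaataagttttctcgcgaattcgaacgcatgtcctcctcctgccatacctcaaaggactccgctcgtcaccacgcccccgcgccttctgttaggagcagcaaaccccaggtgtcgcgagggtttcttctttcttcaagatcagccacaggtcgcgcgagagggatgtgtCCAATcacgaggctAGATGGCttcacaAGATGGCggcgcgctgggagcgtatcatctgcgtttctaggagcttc
TRMT10B (chr9:37753555-37753854, plus strand): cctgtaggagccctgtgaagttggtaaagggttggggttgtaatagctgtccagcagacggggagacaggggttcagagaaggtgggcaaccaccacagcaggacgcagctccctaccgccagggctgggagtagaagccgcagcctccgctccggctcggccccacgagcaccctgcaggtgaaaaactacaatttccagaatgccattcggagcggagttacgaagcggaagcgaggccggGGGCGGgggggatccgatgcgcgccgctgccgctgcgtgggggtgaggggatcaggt
METTL14 (chr4:118685142-118685441, plus strand): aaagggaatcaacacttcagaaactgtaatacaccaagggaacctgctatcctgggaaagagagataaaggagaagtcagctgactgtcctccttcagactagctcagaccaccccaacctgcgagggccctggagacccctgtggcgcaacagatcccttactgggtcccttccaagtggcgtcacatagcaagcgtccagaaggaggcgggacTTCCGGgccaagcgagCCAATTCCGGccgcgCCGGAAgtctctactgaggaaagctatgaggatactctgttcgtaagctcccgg
YTHDC2, WTAP and METTL8 had a peak in CTR only. For METTL8, which has 2 start sites in the table, the window that a peak reaches is given.
YTHDC2 (chr5:113513444-113513743, plus strand): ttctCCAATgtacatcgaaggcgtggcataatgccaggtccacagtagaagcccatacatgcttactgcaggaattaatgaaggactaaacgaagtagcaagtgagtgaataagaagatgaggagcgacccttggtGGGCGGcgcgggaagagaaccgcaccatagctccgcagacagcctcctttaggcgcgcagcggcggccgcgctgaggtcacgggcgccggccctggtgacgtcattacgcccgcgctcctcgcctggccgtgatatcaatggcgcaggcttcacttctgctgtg
WTAP (chr6:159726867-159727166, plus strand): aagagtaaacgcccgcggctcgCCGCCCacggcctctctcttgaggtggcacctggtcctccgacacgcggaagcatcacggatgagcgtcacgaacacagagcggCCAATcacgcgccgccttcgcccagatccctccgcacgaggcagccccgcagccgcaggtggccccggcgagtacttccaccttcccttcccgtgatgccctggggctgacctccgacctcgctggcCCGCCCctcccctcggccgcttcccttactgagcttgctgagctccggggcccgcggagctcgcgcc
METTL8 (chr2:171433941-171434240, minus strand): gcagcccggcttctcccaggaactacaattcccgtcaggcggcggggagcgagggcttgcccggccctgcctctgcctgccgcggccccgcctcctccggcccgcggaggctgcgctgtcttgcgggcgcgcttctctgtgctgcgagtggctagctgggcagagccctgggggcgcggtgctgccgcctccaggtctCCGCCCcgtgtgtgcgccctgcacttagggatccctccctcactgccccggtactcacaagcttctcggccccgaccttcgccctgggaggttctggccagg
TRMT1L and METTL25B had a peak in both lists.
TRMT1L (chr1:185157049-185157348, minus strand): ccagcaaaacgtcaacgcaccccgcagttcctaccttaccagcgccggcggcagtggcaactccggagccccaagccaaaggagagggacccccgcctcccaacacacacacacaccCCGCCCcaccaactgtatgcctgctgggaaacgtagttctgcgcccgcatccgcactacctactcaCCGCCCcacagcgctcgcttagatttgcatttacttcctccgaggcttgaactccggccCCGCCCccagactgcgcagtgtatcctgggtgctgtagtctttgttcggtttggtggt
METTL25B (chr1:156728219-156728518, plus strand): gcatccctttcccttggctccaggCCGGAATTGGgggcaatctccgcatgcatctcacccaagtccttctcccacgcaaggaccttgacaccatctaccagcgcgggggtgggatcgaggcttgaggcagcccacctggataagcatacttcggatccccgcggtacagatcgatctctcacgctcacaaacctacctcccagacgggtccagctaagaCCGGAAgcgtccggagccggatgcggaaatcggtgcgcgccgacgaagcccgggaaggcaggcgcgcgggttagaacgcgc
In METTL14 a CCAAT match and a CCGGAA match on the other strand share 1 base, and in METTL25B a CCGGAA match and a CCAAT match on the other strand share 1 base. The BPP peak covered all 300 bases of the METTL16 window, bases 40 to 300 of TRMT10B and bases 230 to 300 of METTL14. The CTR peak covered bases 206 to 300 of YTHDC2, bases 38 to 300 of WTAP and bases 1 to 77 of METTL8. At TRMT1L both peaks covered the whole window. At METTL25B the BPP peak covered it whole and the CTR peak covered bases 91 to 300. No IgG peak reached any of these 8 windows.

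Of the 71 members, 26 were marked in both lists, 11 in BPP only, 10 in CTR only and 24 in neither. In BPP, 37 of 71 members were marked (52.1%, 95% Wilson interval 40.7 to 63.3), where 30.6% of all protein-coding genes were. In CTR, 36 were marked (50.7%, 39.3 to 62.0), where 31.2% of all protein-coding genes were. In IgG, 1 member was marked (1.41%, 0.249 to 7.56), where 2.13% of all protein-coding genes were. Intervals cover counting error only. The background for marking in both lists was 23.6%, for BPP only 7.03%, for CTR only 7.57% and for neither 61.8%, where the members had 36.6% in both, 15.5% in BPP only, 14.1% in CTR only and 33.8% in neither. At least 1 H3K27ac list marked 47 members (66.2%), where 38.2% of all protein-coding genes were marked.

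Among the 47 marked members, 55.3% had the peak in both lists (41.2 to 68.6), and among all 7628 marked genes 61.7% had. Of the members marked in 1 list only, 11 of 21 were on the BPP side (52.4%, 32.4 to 71.7), where 48.1% of all such genes were. Neither value stood apart from all genes beyond its counting interval. In all 26 members marked in both, the BPP and CTR peaks overlapped each other, and in 19 the overlap reached at least 50% of both peaks. These overlaps were not counted over all genes marked in both lists, so they have no background and are not read as particular to the members.

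**Figure D1:**
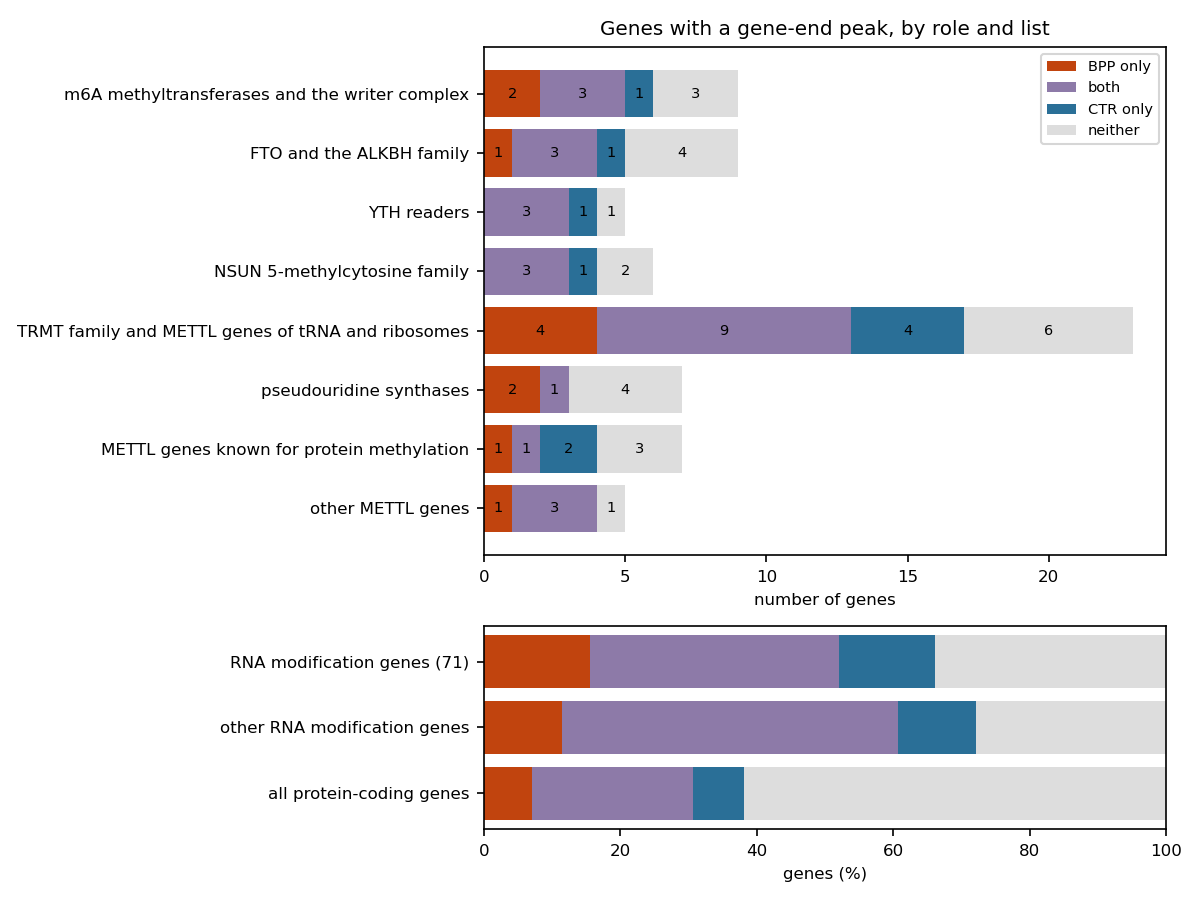
Genes with a gene-end peak by role (upper panel, number of genes, horizontal axis) and as a share of the 71 members, of 79 other RNA modification genes and of all protein-coding genes (lower panel, percent). Colours stand for BPP only, both lists, CTR only and neither. Each of the 8 role groups includes at least 1 gene marked in both lists. The YTH (5 genes) and NSUN (6 genes) groups hold none marked in BPP only. The pseudouridine (7 genes) and other METTL (5 genes) groups hold none marked in CTR only. Over all genes the shares are 7.03% in BPP only and 7.57% in CTR only, so groups this small can lack a class.

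The m6A writers were divided between the classes. METTL3, the catalytic subunit, was marked in BPP (fold 6.78, −log10 q 16.7, chr14:21510850-21511725) and in CTR (fold 6.49, −log10 q 13.5, chr14:21510681-21511444). METTL14, its partner, was marked in BPP (fold 7.45, −log10 q 11.9, chr4:118685371-118685813) and had no CTR or IgG peak over its span or margins. The nearest CTR peak lay 93.2 kb from the METTL14 peak. WTAP, the adaptor of the complex, showed the reverse, with a CTR peak (fold 6.60, −log10 q 12.1, chr6:159726904-159727357) and no BPP peak closer than 14.2 kb. The start of SOD2, a mitochondrial superoxide dismutase gene, lies within 1 kb of the WTAP peak. So the catalytic pair and its adaptor had 1 gene in each class.

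RBM15, which binds RNA and brings the complex to its targets, was marked in BPP (fold 4.31, −log10 q 14.6, chr1:110337812-110339915) and in CTR (fold 5.20, −log10 q 20.3, chr1:110338525-110339709). Its BPP peak was 2104 bp wide, the widest gene-end peak of any member. VIRMA and ZC3H13, the remaining subunits examined, had no peak of any list over the gene or its 1 kb margins. The nearest BPP peak lay 12.1 kb from VIRMA and the nearest CTR peak 12.5 kb. From ZC3H13 the nearest BPP peak lay 564 kb away and the nearest CTR peak 489 kb.

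m6A methyltransferases outside this complex also differed. METTL16, which methylates a spliceosomal RNA and the mRNA of an S-adenosylmethionine synthetase, was marked in BPP (fold 5.88, −log10 q 12.97, chr17:2511551-2512571) with no CTR peak at either end. CTR had 3 peaks inside METTL16, with −log10 q of 6.09, 5.57 and 4.02, and the nearest of these to the BPP peak lay 58.2 kb from it. METTL4, which acts on a small nuclear RNA, was marked in BPP (fold 6.72, −log10 q 18.8, chr18:2571060-2572043) and in CTR (fold 5.23, −log10 q 8.64, chr18:2571060-2571441). At METTL4 the single BPP peak spanned the start site, while CTR had 2 peaks on either side of it, and the start of NDC80, a kinetochore gene, lies within 1 kb. METTL5, which methylates ribosomal RNA, and its stabilising partner TRMT112 had no peak. In all, 5 of these 9 writer genes were marked in BPP and 4 in CTR, and none in IgG.

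Of the demethylases, FTO was marked in both lists and ALKBH5 in neither. FTO had a BPP peak of fold 4.74, −log10 q 4.30 (chr16:53703642-53704309) and a CTR peak of fold 6.20, −log10 q 9.37 (chr16:53703642-53704010). The 2 peaks begin at the same base, and the start of RPGRIP1L, a ciliary gene on the other strand, lies within 1 kb of both. The BPP peak stood at rank 15626 of 17841 in its list and the CTR peak at 4975 of 14836. FTO was marked in CTR only under a minimum −log10 q of 5 or a minimum fold of 5. The same held with lists of equal length and with the 5000 strongest peaks of each list. CTR had a further peak inside FTO (fold 5.45, −log10 q 7.05, chr16:53766270-53766806), and the IgG peak there (fold 5.53, −log10 q 3.82, chr16:53901369-53902044) lay 197 kb from the CTR gene-end peak. ALKBH5 lay 18.4 kb from the nearest BPP peak and 11.9 kb from the nearest CTR peak.

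The other ALKBH genes are relatives of the bacterial DNA repair enzyme AlkB. ALKBH1, a tRNA demethylase, was marked in BPP (fold 4.15, −log10 q 5.39) and in CTR (fold 4.22, −log10 q 5.21), beside the start of SLIRP. ALKBH7, a mitochondrial protein, was marked in BPP (fold 2.87, −log10 q 4.34, chr19:6373319-6373773) and in CTR (fold 4.54, −log10 q 12.5, chr19:6372787-6373634). The BPP peak of ALKBH7 stood at rank 15528 of 17841 in its list, whereas the CTR peak stood at 3129 of 14836. ALKBH6 had a BPP peak (fold 3.41, −log10 q 7.99, chr19:36013856-36014259) and ALKBH3, which repairs alkylated DNA and RNA, a CTR peak (fold 5.60, −log10 q 5.71, chr11:43880487-43881002). ALKBH2, ALKBH4 and ALKBH8 had no peak. In all, 4 of 9 genes of this group were marked in BPP and 4 in CTR.

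Of the 5 YTH readers, 3 were marked in both lists and 1 in CTR only. YTHDF2, which delivers m6A mRNAs to deadenylation and decay, had 2 BPP peaks, the stronger with fold 5.08, −log10 q 11.00 (chr1:28736433-28736742), and 1 CTR peak (fold 6.91, −log10 q 19.2, chr1:28736657-28737426) that bridges the gap between them. YTHDF3, a cytoplasmic reader, had a BPP peak of fold 7.55, −log10 q 20.9 and a CTR peak of fold 6.51, −log10 q 16.9. YTHDC1, the nuclear reader, had a BPP peak of fold 5.91, −log10 q 8.20 and a CTR peak of fold 6.51, −log10 q 13.6. The peaks of YTHDC1 shared 102 bp, 13.7% of the wider peak, and the BPP summit lay 76 bp upstream of the start site while the CTR summit lay 631 bp into the gene. YTHDC2, an RNA helicase with a YTH domain that is needed in meiosis, had a CTR peak (fold 8.79, −log10 q 20.6, chr5:113513649-113514269) and no BPP peak closer than 25.5 kb. That peak stood at rank 1264 of 14836 in the CTR list. YTHDF1, which is linked to translation, had no peak in any list.

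The NSUN enzymes, which methylate cytosine, included the strongest call of any member. NSUN2, the main tRNA cytosine methyltransferase, had a CTR peak (fold 9.39, −log10 q 53.7, chr5:6632845-6633571) at rank 252 of 14836 in its list, and no BPP peak closer than 78.6 kb. The start of SRD5A1, a steroid reductase gene, lies within 1 kb of it, so the peak cannot be assigned to NSUN2 alone. NSUN3, which acts on a mitochondrial tRNA, was marked in BPP (fold 9.42, −log10 q 26.9, chr3:94062722-94063315) and in CTR (fold 4.95, −log10 q 7.13, chr3:94062722-94063422). The 2 peaks of NSUN3 begin at the same base, at rank 814 of 17841 in BPP and 7503 of 14836 in CTR, and the start of DHFR2 lies within 1 kb. NSUN4, a mitochondrial ribosome factor, had a BPP peak of fold 4.14, −log10 q 10.9 and a CTR peak of fold 4.90, −log10 q 13.7. NSUN6, which acts on tRNAs, had a BPP peak of fold 7.29, −log10 q 12.1 and a CTR peak of fold 6.35, −log10 q 10.8, which overlapped by 60 bp. NSUN5 and NSUN7 had no peak. Counted together, 3 of 6 NSUN genes were marked in BPP and 4 in CTR.

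Genes of tRNA and ribosomal RNA methylation formed the largest group, with 23 members, of which 9 were marked in both lists, 4 in BPP only, 4 in CTR only and 6 in neither. TRMT1L, a relative of the tRNA guanosine methyltransferase TRMT1, had the strongest pair of calls, with a BPP peak of fold 9.47, −log10 q 35.6 (chr1:185156636-185157497) and a CTR peak of fold 9.13, −log10 q 33.5 (chr1:185156344-185157657). TRMT13, a ribose methyltransferase, had the highest fold of any member in BPP (fold 10.1, −log10 q 27.9, chr1:100132473-100133224), and its CTR peak had fold 6.03, −log10 q 10.2. The start of SWT1 lies within 1 kb of the peaks at TRMT1L, and that of SASS6 within 1 kb of those at TRMT13.

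The other members of this group marked in both lists were METTL15, TRMT5, TRMT11, TRMT2B, TRMT61B, METTL1 and METTL6. METTL15, which methylates mitochondrial ribosomal RNA, had a BPP peak of fold 5.96, −log10 q 17.1 and a CTR peak of fold 6.59, −log10 q 21.4. TRMT5, a guanosine methyltransferase, had a BPP peak of fold 6.95, −log10 q 17.1 and a CTR peak of fold 5.94, −log10 q 13.1, with summits 643 bp into the gene in both lists. TRMT11, which works with TRMT112, had a BPP peak of fold 6.42, −log10 q 14.6 and a CTR peak of fold 5.74, −log10 q 11.8. The mitochondrial enzymes TRMT2B (BPP −log10 q 10.02, CTR 10.9) and TRMT61B (BPP 10.2, CTR 7.05) had intermediate calls. METTL1, which makes 7-methylguanosine in tRNA, had a BPP peak of fold 3.84, −log10 q 6.90 and a CTR peak of fold 3.95, −log10 q 5.90. METTL6, a tRNA cytosine methyltransferase, had a BPP peak of fold 5.38, −log10 q 6.99 and a CTR peak of fold 4.17, −log10 q 3.89, the lowest −log10 q among the CTR gene-end peaks that stood for a member. The start of KIF18A lies within 1 kb of the peaks at METTL15, that of SLC38A6 near those at TRMT5 and that of EAF1 near those at METTL6.

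TRMT6 and TRMT61A, which encode the 2 subunits of the nuclear tRNA adenosine methyltransferase, were both on the BPP side. TRMT6 had a BPP peak (fold 5.31, −log10 q 7.19, chr20:5950068-5950564) near the start of MCM8 on the other strand. TRMT61A had 2 BPP peaks, of which the stronger (fold 2.89, −log10 q 5.65, chr14:103527950-103528273) lay upstream with its summit 1207 bp before the start site and the other lay at the far end of the gene. The guanosine methyltransferases TRMT10A (fold 6.39, −log10 q 8.24, chr4:99563197-99564025) and TRMT10B (fold 6.59, −log10 q 12.9, chr9:37753594-37754312) also had BPP peaks only, whereas their relative TRMT10C, a subunit of mitochondrial RNase P, had none. The start of MTTP lies within 1 kb of the TRMT10A peak.

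On the CTR side of this group stood METTL2A, METTL2B, METTL8 and TRMT2A. METTL2A (fold 4.74, −log10 q 5.29, chr17:62423672-62424198) and METTL2B (fold 4.70, −log10 q 6.08, chr7:128476644-128477152) are close copies of each other that methylate cytosine in tRNAs, so the placement of reads between them is uncertain. An IgG peak (fold 4.29, −log10 q 2.75, chr7:128477851-128478167) lay 0.699 kb from the METTL2B peak. METTL8, the mitochondrial relative of these enzymes, had a CTR peak (fold 5.12, −log10 q 7.76, chr2:171434164-171434530) between its 2 start sites and near the start of DCAF17. BPP had a peak inside METTL8 (fold 5.01, −log10 q 8.55, chr2:171431758-171432190) that lay 1.97 kb from the CTR peak. TRMT2A, a uridine methyltransferase, had a CTR peak (fold 3.11, −log10 q 6.81, chr22:20116795-20117135), and RANBP1 has a gene end within 1 kb of it.

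**Figure D2:**
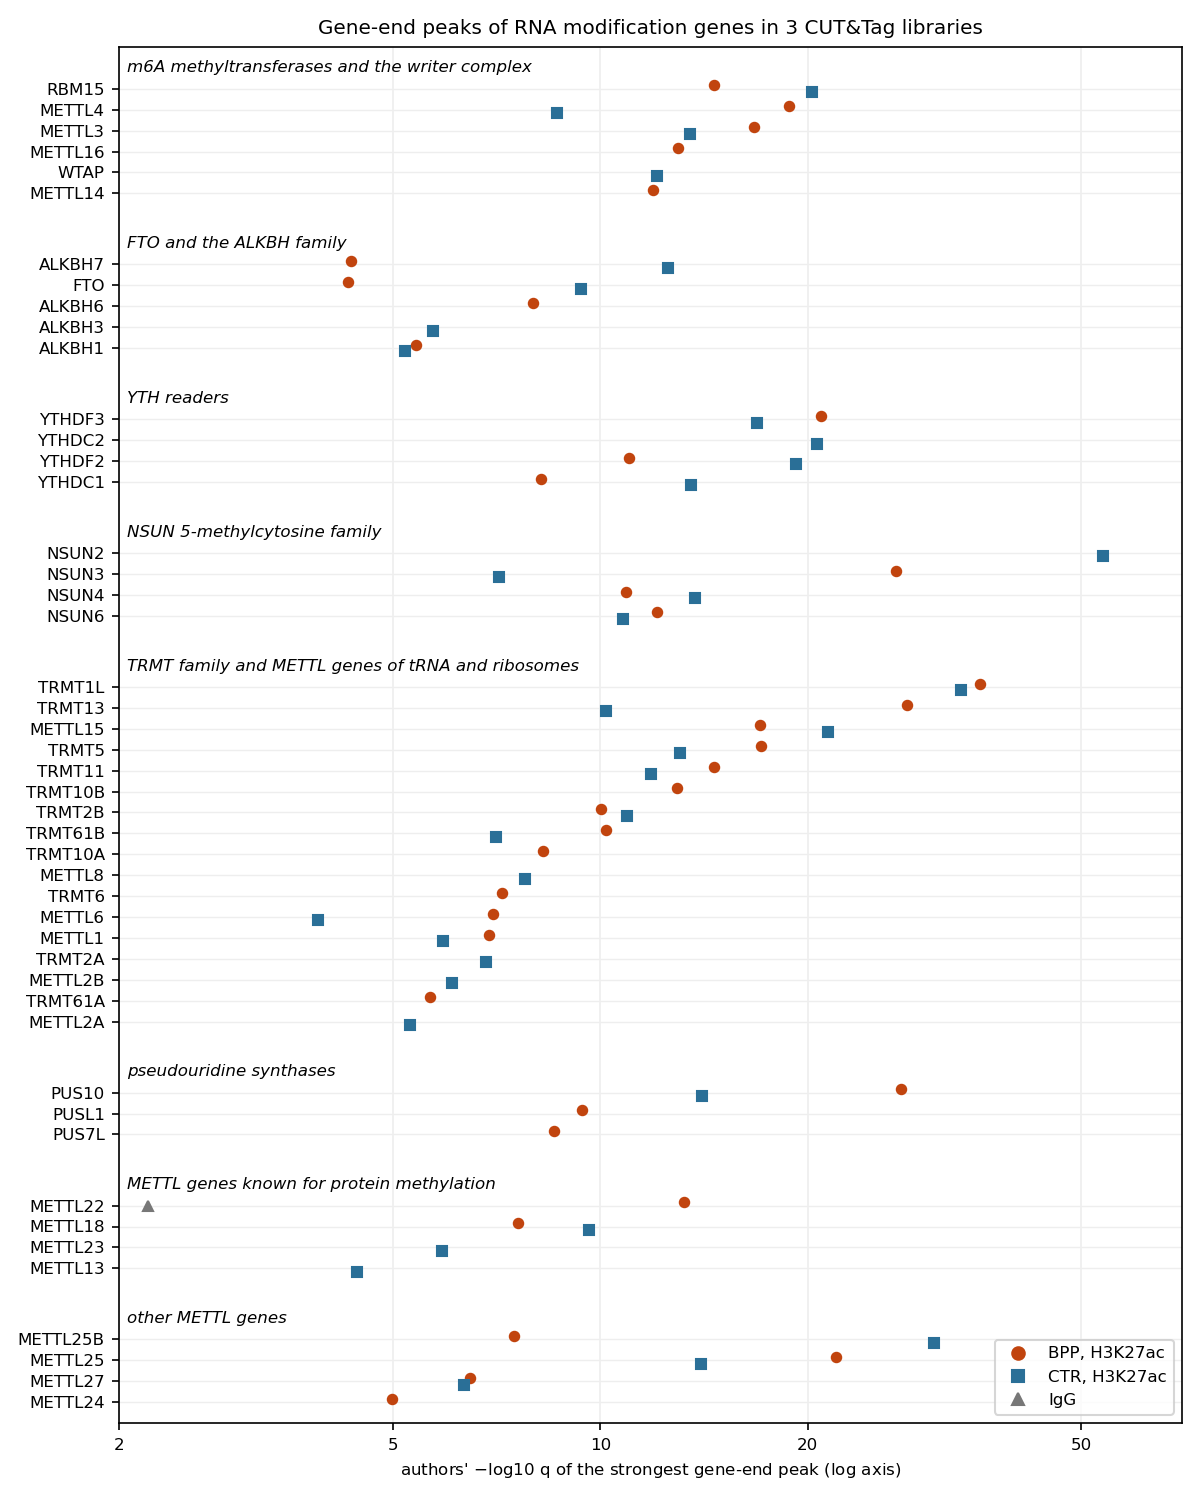
The authors' −log10 q of the strongest gene-end peak (horizontal log axis) for each of the 47 marked members (rows, grouped by role) in the BPP, CTR and IgG lists. NSUN2 (CTR) stands highest and METTL22 is the only row with an IgG mark; values of different lists are not on a common scale of depth.

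Pseudouridine synthases turn uridine into pseudouridine, either alone or, for dyskerin (DKC1), guided by a small nucleolar RNA. PUS10 was the 1 member of 7 marked in both lists, with a BPP peak of fold 7.78, −log10 q 27.4 (chr2:61017193-61018307) and a CTR peak of fold 6.37, −log10 q 14.1 (chr2:61017185-61017969), beside the start of PEX13. PUS10 also had 2 BPP and 2 CTR peaks inside the gene, and each BPP peak overlapped its CTR counterpart. PUS7L (fold 6.13, −log10 q 8.56, chr12:43758782-43759393) and PUSL1 (fold 3.39, −log10 q 9.40, chr1:1311381-1311834) had gene-end peaks in BPP only. The PUS7L peak is within 1 kb of the start of IRAK4, and the PUSL1 peak lies at the higher-coordinate end, within 1 kb of an end of INTS11. PUS7, which modifies tRNAs and mRNAs, had 1 BPP peak inside the gene (fold 3.59, −log10 q 4.29, chr7:105512657-105513304) and none at an end. PUS1, PUS3 and DKC1 had no peak, and the nearest H3K27ac peak to DKC1 was 215 kb away.

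Several METTL genes methylate proteins. METTL18, a histidine methyltransferase of a ribosomal protein, was marked in BPP (fold 5.35, −log10 q 7.59) and in CTR (fold 5.93, −log10 q 9.63), near the start of FIRRM. METTL22 had a BPP peak (fold 6.16, −log10 q 13.2, chr16:8621468-8622216) that overlapped an IgG peak (fold 3.95, −log10 q 2.20, chr16:8621352-8621675), and METTL22 was the only member with an IgG gene-end peak. The BPP peak stood at rank 3179 of 17841 in its list. The IgG peak stood at rank 7473 of 7701, with the lowest −log10 q found in the IgG list. How much of the BPP call is background cannot be told from the lists. METTL13, which methylates an elongation factor, had a CTR peak over its start (fold 3.24, −log10 q 4.43, chr1:171781248-171782005), and BPP had a peak inside the gene (fold 3.59, −log10 q 7.09, chr1:171784026-171784380) 2.02 kb away. METTL23 had a CTR peak (fold 3.65, −log10 q 5.88, chr17:76725791-76727158) that is within 1 kb of an end of JMJD6. METTL9, another histidine methyltransferase, had 1 CTR peak inside the gene (fold 5.04, −log10 q 5.77, chr16:21653284-21653636), near the start of IGSF6. METTL21A and METTL21C had IgG peaks inside the gene and no H3K27ac peak.

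Of the 5 METTL genes left, METTL25 had a BPP peak of fold 8.01 at rank 1207 of 17841 and a CTR peak of fold 6.53, −log10 q 13.99, near the start of CCDC59. METTL25B had a BPP peak of fold 3.28, −log10 q 7.50 and a CTR peak of fold 6.69, −log10 q 30.6, near the start of ISG20L2. These peaks of METTL25B stood at rank 8235 of 17841 in BPP and 618 of 14836 in CTR. METTL27 had a BPP peak of fold 3.76, −log10 q 6.46 and a CTR peak of fold 4.02, −log10 q 6.33. METTL24 had a gene-end peak in BPP only (fold 3.21, −log10 q 4.97, chr6:110356856-110357701), but at its second, internal start site both lists had a peak, of fold 4.34, −log10 q 12.4 in BPP and fold 4.09, −log10 q 9.35 in CTR. METTL26 had no peak.

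By the median, calls were stronger in members marked in both lists than in members marked in 1 list. Members marked in both lists had a median −log10 q of 11.5 in BPP and 12.2 in CTR, where all genes marked in both had 11.4 in BPP and 10.8 in CTR. Members marked in BPP only had a median of 8.56 (range 4.97 to 13.2), where all such genes had 6.49. Members marked in CTR only had a median of 6.45 (range 4.43 to 53.7), where all such genes had 7.07. Median widths of the members' peaks were 753 bp in BPP and 754 bp in CTR when marked in both, 612 bp in BPP only and 522 bp in CTR only. These are descriptions of the lists, without a test.

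The calls of single-list members ran from rank 3179 to 13833 of 17841 in BPP and from 252 to 12517 of 14836 in CTR. Peaks without a counterpart were more common at weaker ranks. When the peaks of a list were sorted by −log10 p into 10 parts of equal size, the share of peaks with no peak of the other list within 1 kb went up from 2.02% in the strongest part of BPP to 78.4% in the weakest, and from 6.61% to 66.4% in CTR. NSUN2 and YTHDC2 were in the strongest part of CTR, where 98 of 1483 peaks lacked a BPP peak. METTL22, METTL16 and TRMT10B were in the second part of BPP, where 200 of 1784 peaks (11.2%) lacked a CTR peak. METTL14 (rank 3810 of 17841) was in the third part, where 24.2% did, and WTAP (rank 3315 of 14836) in the third part of CTR, where 18.0% did. These shares are over all peaks of a list, including those away from gene ends, whereas the members' peaks compared here are gene-end peaks. The distance from a single-list peak to the nearest peak of the other H3K27ac list ran from 7.87 to 331 kb on the BPP side and from 1.97 to 199 kb on the CTR side.

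**Figure D3:**
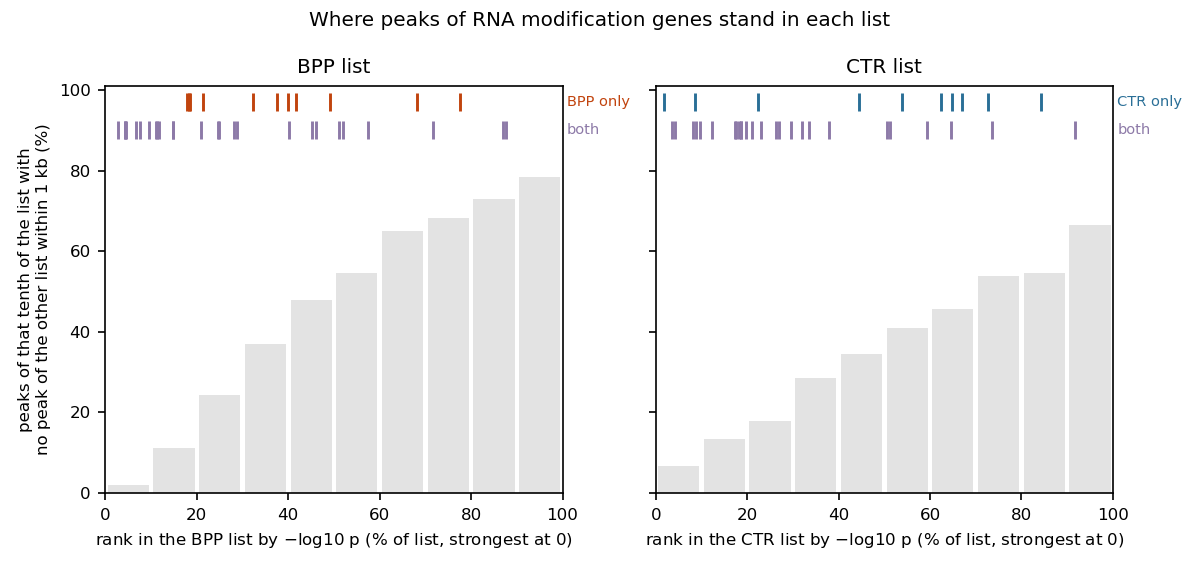
Bars give, for each of 10 equal parts of the BPP list (left) and CTR list (right), the percent of peaks with no peak of the other list within 1 kb; the horizontal axis is the rank by −log10 p, strongest at 0. Ticks above the bars mark the strongest gene-end peak of each member marked in that list only (upper row) or in both lists (lower row). NSUN2 and YTHDC2 are the 2 CTR-only ticks in the strongest of the 10 parts, and no BPP-only tick lies there.

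Of the 59 members with a start site in the promoter table, 32 had a BPP peak and 33 a CTR peak within 1 kb of it, and none had an IgG peak, which at a floor of 3 counts allows a share of up to 5.08%. The background was 32.3% of such protein-coding genes in BPP, 33.9% in CTR and 1.61% in IgG. By start site 25 members were marked in both lists, 7 in BPP only, 8 in CTR only and 19 in neither. Of all genes with a start site, 25.9% were of the both-list class, 6.43% in BPP only, 8.08% in CTR only and 59.6% in neither. Where the strongest gene-end peak was at the start site, it covered the site itself in 25 of 32 members in BPP and in 24 of 32 in CTR. The median summit lay 117 bp into the gene in BPP and 45.0 bp in CTR, with a range from −1207 to 1192 bp in BPP and from −359 to 643 bp in CTR (negative values are upstream).

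**Figure D4:**
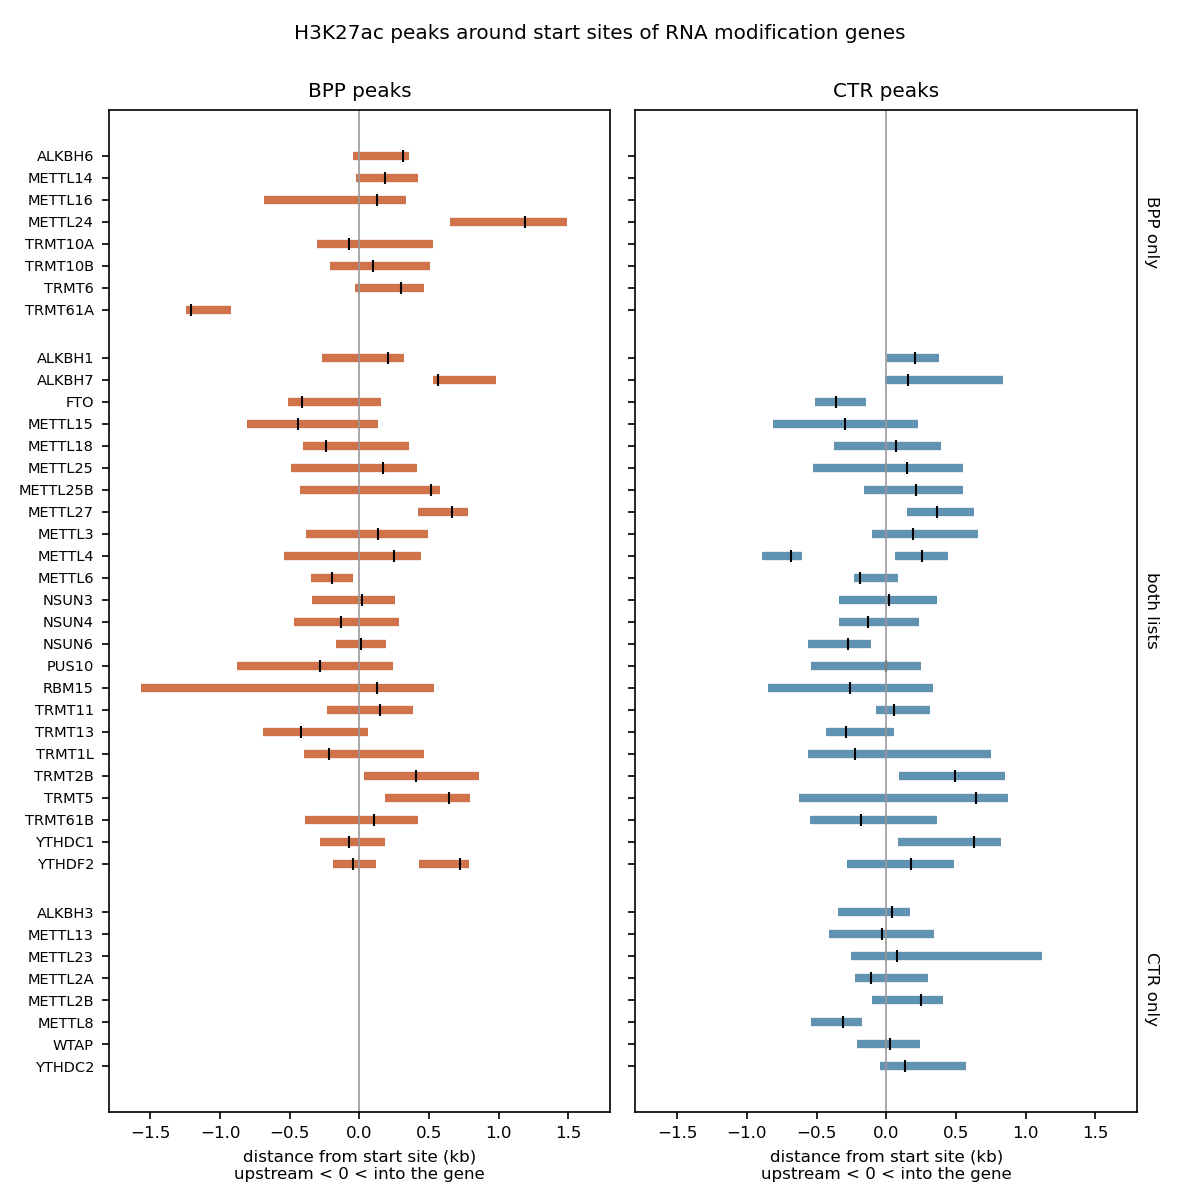
Extent of each gene-end peak within reach of a start site (bars) and its summit (black tick) for BPP (left) and CTR (right), as distance from the nearest start site in kb, with upstream at negative values. Rows are members marked in BPP only, in both lists and in CTR only; the strongest peak covers 0 in 25 of 32 members in BPP and in 24 of 32 in CTR.

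Many members share their promoter region with a neighbour. Of the 59 members with a start site, 21 had the start of another coding gene within 1 kb on the opposite strand. Over all protein-coding genes, 2147 of the 15813 with a start site had such a neighbour. Of the 21 members, 13 were marked at the start in both lists, 2 in BPP only and 2 in CTR only (81.0% marked, 60.0 to 92.3). Of the 38 without such a neighbour, the both-list class held 12, BPP only 5 and CTR only 6 (60.5%, 44.7 to 74.4). Over all genes the shares marked were 72.4% with and 35.3% without such a neighbour. Which gene of such a pair a peak belongs to cannot be told apart. Another gene's start lay within 1 kb of the peak in 13 of the 26 members marked in both lists. The same held for 3 of 11 in BPP only and 3 of 10 in CTR only. These counts were not made over all marked genes and have no background. Starts without an entry in the promoter table were not seen, so the counts are lower bounds.

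Counted over the whole gene and its 1 kb margins, 42 members had a BPP peak (59.2%), 40 a CTR peak (56.3%) and 51 a peak of either (71.8%), where 44.9% of all protein-coding genes had a BPP peak, 42.3% a CTR peak and 52.3% either. Away from gene ends the members had 14 BPP peaks in 10 genes and 18 CTR peaks in 13 genes. In each list 5 of these overlapped a peak of the other list, at METTL24, PUS10 and TRMT1. TRMT1 had a BPP peak (fold 3.87, −log10 q 6.25, chr19:13109757-13110750) that overlapped a CTR peak (fold 4.34, −log10 q 6.50, chr19:13109443-13109797) inside the gene and none at an end. TRMT44 had 1 BPP peak inside the gene (fold 3.37, −log10 q 3.67, chr4:8465615-8466311). With METTL9 and PUS7 this made 4 members with an inside peak alone (5.63%), where 14.1% of all protein-coding genes had one. A gene with a gene-end peak cannot fall in this class, and members had such peaks more often. The class held 4 of the 24 members without a gene-end peak, and 2822 of the 12346 such genes over all. IgG had a peak over 7 members, at METTL22 and inside FTO, METTL21A, METTL21C, METTL25, METTL2B and TRMT11, which is 9.86% of members against 14.6% of all genes.

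No H3K27ac peak in either list lay over 20 of the 71 members or their margins. These were METTL5, VIRMA, ZC3H13, ALKBH2, ALKBH4, ALKBH5, ALKBH8, YTHDF1, NSUN5, NSUN7, METTL17, TRMT10C, TRMT112, TRMT9B, PUS1, PUS3, DKC1, METTL21A, METTL21C and METTL26. METTL26 (1.67 kb) and TRMT112 (2.28 kb) lay closest to a BPP peak. At unknown depth a missing call does not show that the mark is absent.

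Other genes of RNA modification, outside the symbols above, were marked equally often in BPP and in CTR, in 48 of 79 genes each (60.8%). Of the 79, 39 were marked in both lists, 9 in BPP only, 9 in CTR only and 22 in neither, and 2 had an IgG gene-end peak. Those marked in both included OSGEP, a tRNA threonylcarbamoyl enzyme (BPP fold 10.8, −log10 q 72.7; CTR fold 6.85, −log10 q 29.4), and FBL, the ribose methyltransferase fibrillarin (BPP fold 5.88, −log10 q 27.1; CTR fold 6.995, −log10 q 33.2). On the BPP side, DTWD1 had a −log10 q of 17.8 and FTSJ1, a tRNA ribose methyltransferase, of 7.27. On the CTR side, YRDC and TP53RK, which act in the same threonylcarbamoyl pathway as OSGEP, had 12.3 and 11.9. Of the m6A writer's further partners, CBLL1 was marked in both lists and RBM15B in neither.

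The promoter windows of the members held CCGGAA, the core letters bound by ETS factors, more often than those of all genes. At least 1 window held it on either strand in 33 of 59 members (55.9%), against 26.6% of the 15813 protein-coding genes with a start site. It was present in 21 of 40 members with a start-site peak (52.5%) and in 12 of 19 without one (63.2%), where over all genes the shares were 39.8% and 17.6%. Counted by window, CCGGAA was held by 25 of 53 windows of members with a start-site peak and 13 of 26 windows of members without one. CCAAT was found in 49.2% of members and 42.1% of all genes, and GGGCGG in 67.8% of members and 64.3% of all genes. The other 4 motifs had lower shares in members: TATAAA was found in 5.08% of members and 12.4% of all genes, AGATGGC in 5.08% of members and 7.65% of all genes, CACGTG in 10.2% of members and 10.9% of all genes, and GCGCATG in 6.78% of members and 6.82% of all genes. The median number of CpG pairs per window was 23 in members and 21 over all genes. A match is a description of the letters in the window, and genes with several start sites had several windows.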

How the data were processed

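H3K27ac CUT&Tag libraries of A2780 cells treated with BPP, of CTR cells and of an IgG control, 1 each, were compared through the peak lists that the authors deposited. The submitters' processing notes name the tools fastp, deepTools 3.3.0 and Bowtie2 2.4.1 and the builds GRCh38.p13 and hg38. The peak caller and the background it used are not given in the sources used here. Each deposited row gives a score, a fold (ratio) at the summit, a −log10 p, a −log10 q and the offset of the summit. The deposited score was the whole-number part of 10 times −log10 p throughout, so it was not used further.

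Analysis was restricted to chromosomes 1 to 22 and X, and coordinates were converted to start at 1. A gene-end peak overlapped by at least 1 bp a window from 1 kb before to 1 kb after either end of a protein-coding gene in the RefSeq gene table of GRCh38.p14, whose primary chromosomes share the coordinates of the deposited lists. A start-site peak lay within 1 kb of a start from the RefSeq promoter table. Any peak over the gene or its 1 kb margins was counted as well. Genes of the Y chromosome and of the mitochondrion were left out. Groups were taken from the sample titles. Shares carry 95% Wilson intervals, which cover counting error only. Read depth is unknown, because the lists hold no read counts.

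With 1 library per group, no test was made and no p-value is given. Members were described in full, and other genes were named as neighbours or from a list of 79 further RNA modification genes. The members and that list were chosen with earlier results of these data known. The overlap step was tested on simulated peaks. Alternatives were windows of 500 bp and 2 kb, the start site alone, minimum −log10 q and fold values of 5, lists of equal length, the 5000 strongest peaks, removal of peaks that overlap IgG and, for members marked in both lists, an overlap of at least 50% of both peaks. Calculations used Python 3.11.15, pandas 2.3.3, numpy 2.4.6 and scipy 1.17.1.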

Additional observations from a re-analysis of the deposited data

How the results depend on the processing

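No paired analysis was possible because each group had 1 library and the labels carry no replicate number. Under the 5000 strongest peaks of each list, 13 members were marked in both against 26 as reported, 6 in BPP only against 11, and 29 had any H3K27ac peak over the gene against 51. Over all protein-coding genes the same setting left 2046 marked in both against 4710, and 878 in BPP only against 1405. Any peak over the gene was not counted for all genes under this setting, so the 29 members have no background. A minimum fold of 5 left 16 members marked in both, with 9 in BPP only and 8 in CTR only. For all protein-coding genes, 2256 then carried a peak from each list. A BPP peak alone was left at 832 against 1405, and a CTR peak alone at 1268 against 1513. By start site alone, BPP only held 7 members. METTL22, PUS7L and PUSL1 have no start entry and were not counted there, and of the 8 BPP-only members with an entry METTL24 alone changed class. The count of IgG-marked members was 0 under a minimum −log10 q of 5, a minimum fold of 5 and the 5000 strongest peaks, and 3 with a window of 2 kb. By start site alone it was also 0, which says nothing of METTL22, the 1 member marked, since it has no start entry. All other counts stayed within 1.5 times the reported ones. CTR only lay between 8 and 12 members, and between 1167 and 1716 over all genes. A similar count did not mean the same genes. Under the 5000 strongest peaks, 3 of the 10 CTR-only and 4 of the 11 BPP-only members kept their class. Under a minimum fold of 5, 5 of the 10 and 7 of the 11 did. Some members marked in both lists as reported moved into a single-list class.

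Under every window, threshold, list-length and IgG-removal setting, and by start site where an entry exists, METTL14 and METTL16 stayed in BPP only, and NSUN2, WTAP and YTHDC2 in CTR only. NSUN2 and YTHDF3 have no start entry. No setting lowered the threshold of a list, so none could bring in a counterpart that had not been called. Keeping a class therefore describes the strength and place of the called peak and does not test a difference between BPP and CTR. Of the 26 members marked in both, 11 kept that class (METTL3, METTL15, METTL25, NSUN6, PUS10, TRMT1L, TRMT5, TRMT11, TRMT13, YTHDF2 and YTHDF3). An overlap of at least 50% of both peaks was met by 19 of the 26, and not by NSUN6, TRMT5 or YTHDF2. Removing peaks that overlap IgG took away the METTL22 call. Depth limits every absence, since a gene without a call may lie under the threshold of its list.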

Other observations

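Noncoding genes whose symbols begin like those of the enzymes lie outside the comparisons above. Of 33 such pseudogenes, antisense and divergent transcripts, 4 had an H3K27ac peak. The share was not counted over all noncoding genes, so 4 of 33 has no background and is not read as few or many. The peaks at RBM15-AS1, METTL14-DT and YTHDF3-DT were among those already given for RBM15, METTL14 and YTHDF3, so that METTL14-DT, the divergent transcript beside METTL14, was marked in BPP only. RBM15-AS1 had a further BPP peak (fold 4.43, −log10 q 3.64, chr1:110292380-110292771) and an IgG peak (fold 4.87, −log10 q 3.10, chr1:110287792-110288444) along its length, and no member had either. METTL21AP1, a pseudogene, had a CTR peak (fold 4.30, −log10 q 3.199, chr21:39236048-39236375) and no BPP or IgG peak, while METTL21A itself had no H3K27ac peak.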
